A study of Homo sapiens with 4 samples.

Results

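Genes for histone-modifying enzymes, heterochromatin proteins and histone chaperones were compared in cells of OVCAR-3, a human line established from an ovarian carcinoma. The arrays labelled H1.3 came from 2 samples of OVCAR-3 cells described as overexpressing the human linker histone H1.3, and the vector-only arrays from 2 samples of OVCAR-3 cells that received vectors lacking H1.3. All 4 cultures grew in the same medium. All 4 sample titles call the replicates biological. Those of the H1.3 samples add an (H), which the labels do not explain. The sources used here do not give the promoter of the vector, how cells were selected or whether replicates were separate transfections or clones. The p-values therefore rest on the spread between 2 arrays a group, which limma draws toward the spread typical of the whole array. Part of that spread may be technical, and any spread between separate transfections or clones may be missing from it. The 44 genes were chosen by name to cover Polycomb, H3K9 methylation, the HP1 proteins, deacetylases, demethylases, chaperones, remodelling ATPases and HMG proteins. Of these, 42 occurred in the array annotation among 20172 genes in all, and 39 had a transcript cluster, the array's probe set for a gene, of their own. BMI1, HMGA2 and HMGB1 were annotated only to clusters shared with other genes, and RNF2 and CBX8 were not analysed here. The rule named H4K20 methylation as well, but none of the 44 genes is an H4K20 methyltransferase, so that mark is covered below from a wider list.

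Linker histones bind where DNA enters and leaves the nucleosome and favour compact chromatin. The proteins studied here act on the same fibre. Polycomb complexes and the H3K9 methylation and HP1 system keep genes silent, deacetylases remove activating marks, chaperones hand histones to DNA, and HMG proteins such as HMGN1 and HMGB1 are known to compete with linker histones for nucleosomes.

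The level of each cluster is a log2 value, and a difference is the mean of the arrays labelled H1.3 minus the mean of the vector-only arrays, so that 1 is a doubling and -1 a halving. The gene that encodes H1.3 itself, H1-3, had levels of 7.47 and 7.69 in the arrays labelled H1.3 and of 8.65 and 7.88 in the vector-only arrays, a difference of -0.69 ± 0.24 (SE) with an adjusted limma p of 0.319. The targeted transcript thus ran against the label, and higher and lower below are said of the arrays by their label. The sources used here do not say whether the cluster's probes lie in the sequence the vectors carried. The median level of the named clusters was 6.84 on every array. Markers of ovarian and epithelial carcinoma cells lay at or above that level for 15 of 16 genes measured, against 1 of 14 leukocyte, 2 of 11 fibroblast and 0 of 10 endothelial markers. The mean level of the 16 carcinoma markers was 10.1 on both arrays labelled H1.3, against 10.4 and 10.3 on the vector-only arrays. Of these 16, MECOM and FOLR1, named after their values were seen, fell by 1.58 and 1.26 at adjusted limma p of 0.0266 and 0.0291, beside 0.277% of all genes called lower. Below without overlap lay 7 of the 16 and above it 2, or 43.8% and 12.5%, beside 19.3% and 21.6% of all genes. Among genes at or above the median level these shares were 25.6% and 22.2%. The part of this marker shift in the results below was not tested.

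None of the 39 chromatin genes measured on a cluster of its own passed limma at an adjusted p under 0.05, and 0 were higher and 2 lower at an unadjusted p under 0.05. Over all 18417 genes, 0.217% were called higher and 0.277% lower at the adjusted threshold, and 5.33% were higher and 6.46% lower at the unadjusted one. Among the 9308 genes at or above the median level these shares were 0.204% higher and 0.344% lower at the adjusted threshold, and 6.19% higher and 9.3% lower at the unadjusted one. The smallest adjusted p among the 39 was 0.158. Differences were small: 15 genes lay under 0.10 in size, 19 between 0.10 and 0.25, and 5 at 0.25 or more, with 0.47 the largest. With an SE of 0.11 to 0.19, the 95% interval of every one of the 39 differences lay inside -1 to 1, and that of 29 lay inside -0.5 to 0.5. The smallest difference called in any cluster of the array was 0.82.

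The 39 genes had a median difference of -0.05, with 16 positive and 23 negative values. The median was 0.015 over all 18417 genes and -0.005 over the 9308 genes at or above the median level, where 37 of the 39 also lay. In 13 genes both arrays labelled H1.3 lay below both vector-only arrays, and in 6 they lay above both. That is 33.3% and 15.4% of the 39, beside 19.3% below and 21.6% above over all genes, and 25.6% below and 22.2% above among genes at or above the median level. The median of the 39 was -0.01 without H1.3 replicate 1, and among the vector-only arrays it was -0.03 without replicate 2 and -0.08 without replicate 1. Since the samples are bulk cultures, fewer cells that express a gene and less RNA per cell cannot be told apart.

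**Figure D1:**
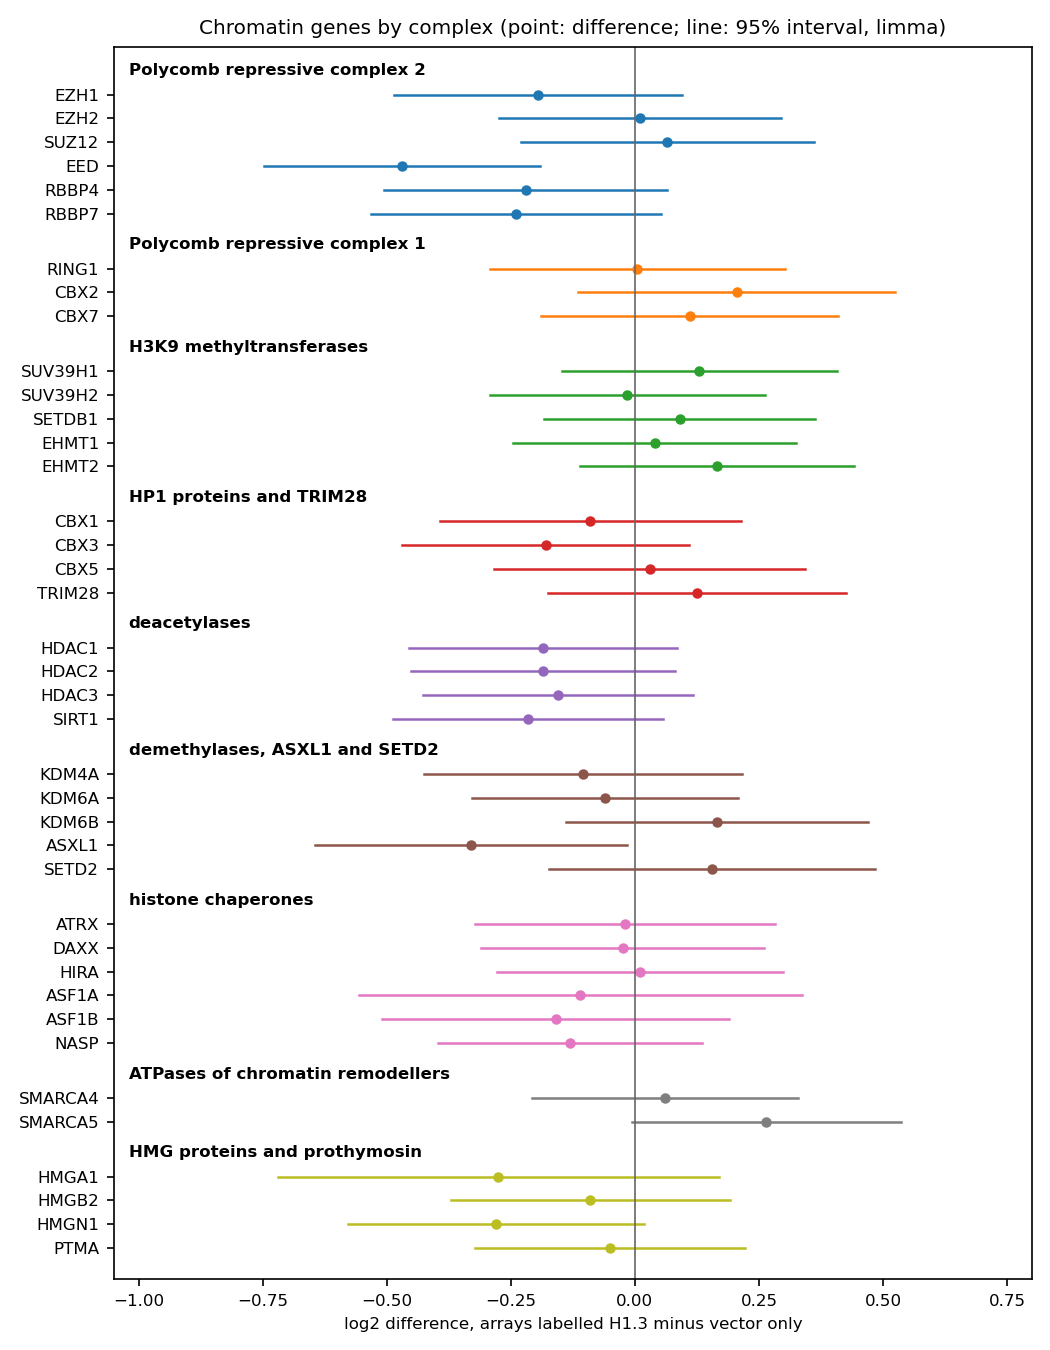
Log2 difference of each of the 39 genes (point) with its 95% limma interval (line), arrays labelled H1.3 minus vector only, grouped by complex, n = 2 arrays per group. Only the intervals of EED and ASXL1 leave out 0, both on the negative side, and all 4 deacetylases lie left of 0.

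Polycomb repressive complex 2 writes H3K27 methylation, and its core is built from a catalytic subunit, EZH2 or EZH1, with SUZ12, EED and a histone-binding subunit, RBBP4 or RBBP7. EED, which reads H3K27 methylation and so stimulates the enzyme, had the largest difference of the 39 genes. Its level was 7.74 and 7.88 in the arrays labelled H1.3 and 8.28 in both vector-only arrays. The groups did not overlap, and the vector-only arrays gave the same value. The difference was -0.47 ± 0.12 (SE; 95% interval -0.75 to -0.19), 1.39-fold lower, with an unadjusted limma p of 0.00509 and an adjusted p of 0.158. Leaving out 1 array gave -0.54 to -0.40.

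EED stands on chromosome 11 among genes that were lower as well. The median difference of the 30 nearest genes at or above the median level, 15 on each side in the RefSeq order, was -0.51, close to the -0.47 of EED itself. The part of these neighbours in the EED result was not tested. Because EED is the gene with the largest difference, the 250 bases before its RefSeq start are shown (GRCh38.p14, chr11:86244503-86244752, plus strand), in lower case with capitals where a script found 1 of 6 searched promoter motifs on either strand.
EED: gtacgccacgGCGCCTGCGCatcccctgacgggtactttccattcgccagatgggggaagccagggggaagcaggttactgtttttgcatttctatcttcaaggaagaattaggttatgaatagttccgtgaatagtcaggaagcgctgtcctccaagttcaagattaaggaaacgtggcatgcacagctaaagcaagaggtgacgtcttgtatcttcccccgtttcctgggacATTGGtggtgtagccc
The capitals mark an NRF1 match (GCGC, any 2 bases, GCGC) and, 12 to 16 bases before the start, the reverse strand of a CCAAT box (CCAAT). Over 35116 promoter windows of this length, 7.16% hold the first motif and 32.0% the second. No GC box (GGGCGG) was found in the EED window, where 42.6% of all windows hold one. The other motifs searched were ETS (CCGGAAG, in 8.52% of windows), CRE (TGACGTCA, in 1.65%) and 4 spellings of the E2F site (TTTCCCGC, TTTGGCGC, TTTCGCGC and TTTGCCGC, in 2.79% together).

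The catalytic subunit EZH2 had levels of 9.17 and 9.24 in the arrays labelled H1.3 and of 9.27 and 9.12 in the vector-only arrays. The groups overlapped, and the difference was 0.01 ± 0.12 (SE; 95% interval -0.27 to 0.29). SUZ12, the scaffold of the complex, differed by only 0.07 and also overlapped. EZH1, the less active paralogue, measured 6.92 and 6.99 in the arrays labelled H1.3 against 7.24 and 7.06 in the vector-only arrays. Both of its values labelled H1.3 lay below both vector-only values, with a difference of -0.20, which was -0.11 without vector-only replicate 1.

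RBBP4 and RBBP7, WD-repeat proteins that bind histone H4 in this complex and also in deacetylase complexes, were lower too without overlap. RBBP4 had levels of 11.24 and 11.38 in the arrays labelled H1.3 and of 11.58 and 11.48 in the vector-only arrays, a difference of -0.22 ± 0.12 (SE). RBBP7 had levels of 10.19 and 10.35 in the arrays labelled H1.3 and of 10.45 and 10.57 in the vector-only arrays, a difference of -0.24 ± 0.12 (SE). The 6 core genes of the complex held 4 that were lower without overlap, beside 25.6% of genes at or above the median level, and of these EED was at an unadjusted p under 0.05. Their median difference was -0.21, while EZH2 and SUZ12 lay near 0. That median was -0.26 to -0.14 when 1 array was left out.

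Of 8 genes listed as accessory to this complex in the wider list, 4 had positive and 2 negative differences, with a median of 0.03. PHF1, a Tudor-domain subunit, had the smallest p and differed by 0.18, and AEBP2, a zinc finger subunit, by 0.13, with adjusted limma p of 0.673 and 0.759.

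Polycomb repressive complex 1 ubiquitinates histone H2A through RING1 or RNF2, and its CBX subunits bind the H3K27 mark. Only RING1, CBX2 and CBX7 had clusters of their own. CBX2 measured 8.16 and 7.87 in the arrays labelled H1.3 against 7.80 and 7.82 in the vector-only arrays, higher without overlap, with a difference of 0.21 ± 0.14 (SE) that came mainly from H1.3 replicate 1 and was 0.06 without it. RING1 differed by 0.005 and CBX7 by 0.11, both with overlapping groups, and CBX7 by 0.00 without H1.3 replicate 1. BMI1, the subunit that activates the ubiquitin ligase, could be read only from a cluster shared with COMMD3-BMI1, which differed by 0.12. Of 18 other subunits measured, 11 were positive and 7 negative, with a median of 0.09. Only 1 gene, a lower one, was at an unadjusted limma p under 0.05. That is 5.56%, beside 9.3% lower among genes at or above the median level, where 17 of the 18 lie. That gene was PCGF6, a subunit of a variant complex, at -0.48 ± 0.18 (SE; adjusted limma p 0.356), and CBX6, another chromodomain subunit, followed at 0.24 (adjusted limma p 0.484).

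Methylation of H3K9 is written by SUV39H1 and SUV39H2 in constitutive heterochromatin, by SETDB1 at repeats and zinc finger targets, and by EHMT1 and EHMT2 in euchromatin. SUV39H1 measured 6.84 and 6.72 in the arrays labelled H1.3 against 6.68 and 6.62 in the vector-only arrays, a difference of 0.13. SETDB1 measured 8.75 and 8.85 in the arrays labelled H1.3 against 8.73 and 8.69 in the vector-only arrays, a difference of 0.09. EHMT2 measured 8.88 and 8.86 in the arrays labelled H1.3 against 8.64 and 8.77 in the vector-only arrays, a difference of 0.17. In these 3 of the 5 genes both values labelled H1.3 lay above both vector-only values, beside 21.6% of all genes and 22.2% of those at or above the median level, whereas SUV39H2 at -0.02 and EHMT1 at 0.04 overlapped.

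The median of the 5 methyltransferases was 0.09, with SE of 0.12 for each gene, and 0.07 to 0.11 when 1 array was left out. SUV39H1 differed by 0.07 without H1.3 replicate 1 and EHMT2 by 0.10 without vector-only replicate 1. The 30 neighbours of SETDB1 on chromosome 1 had a median difference of 0.26, above that of SETDB1 itself. Of 13 cofactors of H3K9 methylation, 8 were positive and 4 negative with a median of 0.01. Without overlap, 4 lay above and 0 below, or 30.8% and 0%, beside 21.6% and 19.3% of all genes. Among genes at or above the median level, where 10 of the 13 lie, these shares were 22.2% and 25.6%. ATF7IP, the partner that stabilises SETDB1, and TASOR, the scaffold of the HUSH silencing complex, both differed by 0.23 (adjusted limma p 0.527 and 0.575).

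HP1 proteins read the H3K9 mark. CBX5, or HP1 alpha, differed by 0.03, and CBX1, or HP1 beta, by -0.09, and the groups overlapped for both. CBX3, or HP1 gamma, measured 9.65 and 9.81 in the arrays labelled H1.3 against 9.96 and 9.86 in the vector-only arrays, lower without overlap, with a difference of -0.18 ± 0.12 (SE) that was -0.10 without H1.3 replicate 1. Its 30 neighbours on chromosome 7 had a median of -0.34. TRIM28, the corepressor that brings SETDB1 and HP1 to zinc finger proteins, differed by 0.13 with overlapping groups, and the value was 0.02 without H1.3 replicate 1 and 0.23 when replicate 2 was omitted. The median of the 4 genes was -0.03, and it ran from -0.12 to 0.03 when 1 array was left out.

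For H4K20 methylation, 5 genes of the wider list were measured, 2 positive and 3 negative, with a median of -0.06. KMT5B, which writes the di- and trimethylated forms, had the smallest p and measured 8.77 and 8.65 in the arrays labelled H1.3 against 9.04 and 8.93 in the vector-only arrays. The difference was -0.28 ± 0.12 (SE; adjusted limma p 0.448), beside a median of -0.15 over its 30 neighbours on chromosome 11. PHF8, an H4K20 demethylase, differed by -0.16 (adjusted limma p 0.690). KMT5C, another methyltransferase of this mark, named after its values were seen, was higher without overlap at 7.53 and 7.54 in the arrays labelled H1.3 against 7.40 and 7.42 in the vector-only arrays, a difference of 0.13 (adjusted limma p 0.756).

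All 4 deacetylases among the 44 genes were lower in the arrays labelled H1.3 without overlap, by closely similar amounts, though none passed, nor was any at an unadjusted p under 0.05. Such a lack of overlap was found below in 19.3% of all genes and in 25.6% of those at or above the median level, where these 4 lie. HDAC1 and HDAC2 are the interchangeable catalytic subunits of the Sin3, NuRD and CoREST complexes, HDAC3 is that of the NCoR and SMRT complexes, and SIRT1 is an NAD-dependent deacetylase that is known to act on H4K16 and linker histone H1. HDAC1 measured 10.71 and 10.63 in the arrays labelled H1.3 against 10.88 and 10.83 in the vector-only arrays. HDAC2 measured 10.11 and 10.17 in the arrays labelled H1.3 against 10.33 and 10.32 in the vector-only arrays. In both genes the replicates of a group lay closer together than the groups did.

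HDAC3 measured 9.39 and 9.29 in the arrays labelled H1.3 against 9.51 and 9.48 in the vector-only arrays. SIRT1 measured 8.83 and 8.86 in the arrays labelled H1.3 against 9.01 and 9.11 in the vector-only arrays. Their differences were -0.16 and -0.22, beside -0.19 for HDAC1 and for HDAC2, each with an SE of 0.11 to 0.12 and with adjusted limma p from 0.556 for SIRT1 to 0.691 for HDAC3. The median of -0.19 over the 4 genes was -0.20 to -0.17 when 1 array was left out. The neighbours of the 4 genes on chromosomes 1, 6, 5 and 10 had medians of -0.06, 0.00, -0.04 and -0.14. HDAC1 and RBBP4 lie close together on chromosome 1, with 3 genes at or above the median level between them, and share 25 of their 30 neighbours.

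**Figure D2:**
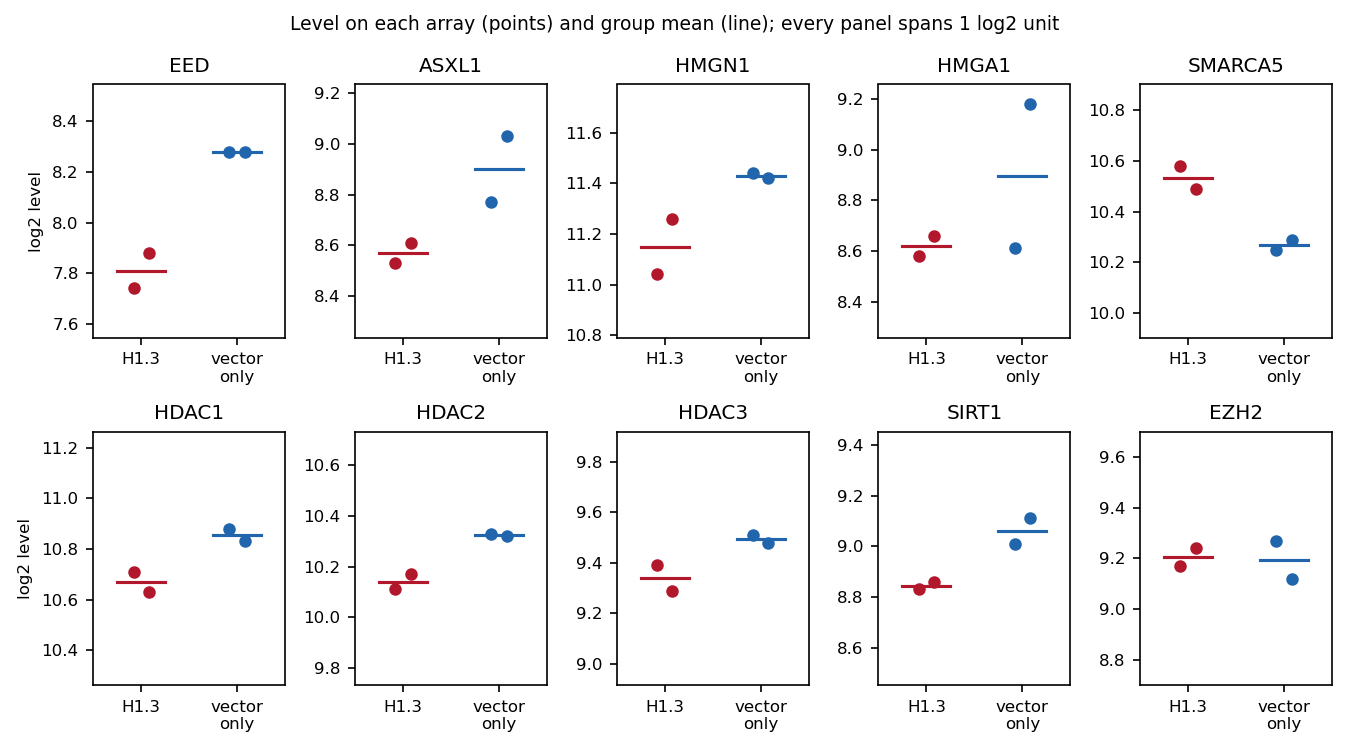
Log2 level of 10 genes on each array (points) with the group mean (line), arrays labelled H1.3 left and vector-only arrays right, each panel spanning 1 log2 unit on its own scale. EED, ASXL1, HMGN1 and the 4 deacetylases lie lower and SMARCA5 higher in the arrays labelled H1.3 without overlap, EZH2 overlaps, and the HMGA1 difference comes from 1 vector-only array.

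Since the 4 deacetylase genes differed alike, their promoters are shown for comparison, each as the 250 bases before the RefSeq start in GRCh38.p14 with motif matches in capitals. They lie at chr1:32291833-32292082 (HDAC1, plus strand), chr6:113971149-113971398 (HDAC2, minus strand), chr5:141636850-141637099 (HDAC3, minus strand) and chr10:67884406-67884655 (SIRT1, plus strand).
HDAC1: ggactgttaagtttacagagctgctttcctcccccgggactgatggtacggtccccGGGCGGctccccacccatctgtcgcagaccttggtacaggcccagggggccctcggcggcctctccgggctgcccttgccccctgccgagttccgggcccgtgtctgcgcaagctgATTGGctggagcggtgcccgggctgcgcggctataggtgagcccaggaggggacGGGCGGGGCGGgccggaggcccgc
HDAC2: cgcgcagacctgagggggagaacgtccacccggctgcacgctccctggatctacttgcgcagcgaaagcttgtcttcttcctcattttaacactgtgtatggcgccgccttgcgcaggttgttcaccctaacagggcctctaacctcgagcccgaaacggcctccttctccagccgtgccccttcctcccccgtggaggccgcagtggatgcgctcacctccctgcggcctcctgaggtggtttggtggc
HDAC3: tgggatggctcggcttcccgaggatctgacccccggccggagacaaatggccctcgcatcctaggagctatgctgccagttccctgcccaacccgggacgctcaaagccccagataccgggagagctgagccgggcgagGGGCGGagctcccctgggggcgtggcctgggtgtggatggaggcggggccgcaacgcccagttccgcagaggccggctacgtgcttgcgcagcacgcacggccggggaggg
SIRT1: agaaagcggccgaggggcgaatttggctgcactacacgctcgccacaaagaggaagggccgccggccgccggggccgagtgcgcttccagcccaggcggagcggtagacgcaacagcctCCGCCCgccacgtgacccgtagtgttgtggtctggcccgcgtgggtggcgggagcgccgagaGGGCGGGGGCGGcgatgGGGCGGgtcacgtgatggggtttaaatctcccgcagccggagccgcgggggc
The windows held 3, 0, 1 and 4 GC boxes for HDAC1, HDAC2, HDAC3 and SIRT1, and the last pair in HDAC1 overlap by 1 base. HDAC1 also held a CCAAT box on the reverse strand, and no other motif of the 6 was found in the 4 windows. No motif was thus common to all 4. Their GC content was 71.6%, 63.2%, 70.8% and 72.0%, above the 58.0% median of all windows. Of 37 of the 44 genes with a promoter in the table, taken at the first listed start, 29 held a GC box, or 78.4%. A match says only that the letters are there.

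Of 30 other deacetylases and subunits of their complexes, 18 were positive and 11 negative with a median of 0.03. At an unadjusted limma p under 0.05 lay 2, both higher, or 6.67% beside 6.19% of genes at or above the median level. Without overlap, 9 lay above and 5 below, or 30% and 16.7%, beside 22.2% and 25.6% of those genes. The deacetylase enzymes of this list were looked up after their values were seen. HDAC9, HDAC10, HDAC11 and SIRT2 were higher without overlap. The others, HDAC8 at -0.035 among them, overlapped. GATAD2B, a subunit of the NuRD complex, measured 9.03 and 9.13 in the arrays labelled H1.3 against 8.47 and 8.60 in the vector-only arrays. Its difference of 0.55 ± 0.12 (SE; adjusted limma p 0.122) stood beside a median of 0.22 over its 30 neighbours on chromosome 1. HDAC9, a class IIa deacetylase, measured 7.17 and 7.10 in the arrays labelled H1.3 against 6.81 and 6.51 in the vector-only arrays. Its difference was 0.48 ± 0.14 (SE; adjusted limma p 0.221), and its neighbours on chromosome 7 ran the other way, with a median of -0.31.

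ASXL1 is a subunit of the complex that removes ubiquitin from histone H2A and so opposes Polycomb repressive complex 1. It measured 8.53 and 8.61 in the arrays labelled H1.3 against 8.77 and 9.03 in the vector-only arrays. The groups did not overlap, and the vector-only arrays lay farther apart than the arrays labelled H1.3. The difference was -0.33 ± 0.13 (SE; 95% interval -0.64 to -0.02), with an unadjusted limma p of 0.0416 and an adjusted p of 0.404, and it was -0.20 without vector-only replicate 2. The 30 neighbours of ASXL1 on chromosome 20 had a median of -0.20.

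With each gene judged on its single-symbol cluster of highest mean, ASXL1 was, after EED, the other gene at an unadjusted p under 0.05. Its window is shown for that reason (GRCh38.p14, chr20:32358081-32358330, plus strand). The table lists 3 starts for ASXL1, and the first listed is used.
ASXL1: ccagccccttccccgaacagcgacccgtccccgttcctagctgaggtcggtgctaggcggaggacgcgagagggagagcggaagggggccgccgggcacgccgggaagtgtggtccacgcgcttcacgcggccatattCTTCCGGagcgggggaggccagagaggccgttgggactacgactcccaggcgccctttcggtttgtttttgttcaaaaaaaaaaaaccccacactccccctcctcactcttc
The capitals mark an ETS match on the reverse strand, and none of the other 5 motifs was found.

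Among the demethylases, KDM6A and KDM6B, which remove the H3K27 mark, differed by -0.06 and 0.17. KDM6A was lower without overlap, at 7.69 and 7.75 in the arrays labelled H1.3 against 7.80 and 7.76 in the vector-only arrays, and KDM6B overlapped, with values of 0.06 to 0.27 when 1 array was left out. KDM4A, an H3K9 and H3K36 demethylase, differed by -0.11 (-0.22 to 0.005 when 1 array was left out), and SETD2, the enzyme that trimethylates H3K36, by 0.16, with overlapping groups. SETD2 was 8.75 and 9.06 in the arrays labelled H1.3 against 8.73 and 8.77 in the vector-only arrays, so that its difference was 0.00 without H1.3 replicate 2.

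Of 21 other demethylases and deubiquitinase subunits, 7 were positive and 14 negative, with a median of -0.09. KDM2A, an H3K36 demethylase, differed by -0.35 and KDM5B, an H3K4 demethylase, by 0.32, with adjusted limma p of 0.317 and 0.366. The neighbours of KDM2A on chromosome 11 had a median of -0.25 and those of KDM5B on chromosome 1 of 0.19.

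Histone chaperones carry histones that are not on DNA. ATRX and DAXX, which deposit the variant H3.3 at heterochromatin and telomeres, differed by -0.02 and -0.03, and HIRA, which deposits H3.3 at genes, by 0.01. For all 3 the groups overlapped, and the 95% intervals reached from -0.32 to 0.30 at most. ASF1A and ASF1B, which pass H3 and H4 to other chaperones, differed by -0.11 and -0.16 with overlapping groups, and ASF1B ranged over -0.31 to -0.02 with each array left out in turn, lowest without vector-only replicate 2 and nearest 0 when replicate 1 of that group was omitted. NASP, which keeps a store of H3 and H4 and is known to bind linker histones, measured 9.16 and 9.15 in the arrays labelled H1.3 against 9.31 and 9.26 in the vector-only arrays, lower without overlap at -0.13 ± 0.11 (SE). ASF1A was the least reproducible of the 6, at 7.55 and 8.08 within the arrays labelled H1.3, and its difference ran from -0.38 to 0.16 when 1 array was left out.

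The median of the 6 chaperones was -0.07, and -0.02 without H1.3 replicate 1. Of 27 other chaperones, 14 were positive and 13 negative with a median of 0.01, and UBN2, a subunit of the HIRA complex, and the importin IPO9, an H2A and H2B carrier, differed by 0.33 and 0.35, both with an adjusted limma p of 0.425. The neighbours of IPO9 on chromosome 1 had a median of 0.21 and those of UBN2 on chromosome 7 of -0.003.

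EZH2, ASF1B, NASP and HMGB2 are genes that proliferating cells are known to express at higher levels. Of 20 proliferation markers, 5 were positive and 14 negative with a median of -0.07, 1 was lower at an unadjusted limma p under 0.05, and 3 lay above and 7 below without overlap. That is 5% beside 9.3% of genes at or above the median level, and 15% above and 35% below beside 22.2% and 25.6%. Their mean level was 9.58 and 9.56 in the arrays labelled H1.3 and 9.71 and 9.64 in the vector-only arrays. The part of proliferation in the differences of these 4 genes was not tested.

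The remodelling ATPases were both higher without overlap, beside 21.6% of all genes and 22.2% of those at or above the median level. SMARCA5, the ATPase of the ISWI complexes that space nucleosomes, had the largest positive difference of the 39 genes. It measured 10.58 and 10.49 in the arrays labelled H1.3 against 10.25 and 10.29 in the vector-only arrays, and replicates lay within 0.1 of each other. The difference was 0.27 ± 0.12 (SE; 95% interval -0.01 to 0.54), with an adjusted limma p of 0.445, and 0.22 to 0.31 when 1 array was left out. Its 30 neighbours on chromosome 4 had a median of 0.14. SMARCA4, the BRG1 ATPase of the BAF complexes, measured 8.56 and 8.57 in the arrays labelled H1.3 against 8.47 and 8.54 in the vector-only arrays. Its difference was 0.06 ± 0.11 (SE). The window before the start of SMARCA5, shown as the largest positive difference (GRCh38.p14, chr4:143513452-143513701, plus strand), held 2 GC boxes on the reverse strand, in capitals, and none of the other 5 motifs.
SMARCA5: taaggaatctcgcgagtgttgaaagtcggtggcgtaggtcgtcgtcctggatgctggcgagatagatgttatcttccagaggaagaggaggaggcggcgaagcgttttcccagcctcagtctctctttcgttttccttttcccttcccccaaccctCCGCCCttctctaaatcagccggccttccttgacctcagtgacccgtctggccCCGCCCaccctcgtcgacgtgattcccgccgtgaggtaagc

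Of 30 other remodeller subunits, 17 were positive and 12 negative, with a median of 0.04. SMARCA2, the BRM ATPase that replaces SMARCA4 in some BAF complexes, measured 7.78 and 8.18 in the arrays labelled H1.3 against 8.61 and 8.55 in the vector-only arrays. Its difference of -0.60 ± 0.15 (SE; adjusted limma p 0.167) stood beside a median of -0.35 over 17 neighbours on chromosome 9. CHD7, a chromodomain remodeller, measured 8.06 and 8.20 in the arrays labelled H1.3 against 8.76 and 8.66 in the vector-only arrays, a difference of -0.58 ± 0.12 (SE; adjusted limma p 0.108) with a neighbour median of -0.13 on chromosome 8.

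All 4 genes for HMG proteins and prothymosin with their own clusters had negative differences. HMGN1, which binds nucleosomes and is known to weaken linker histone binding, measured 11.04 and 11.26 in the arrays labelled H1.3 against 11.44 and 11.42 in the vector-only arrays. It was lower without overlap, with a difference of -0.28 ± 0.13 (SE; 95% interval -0.58 to 0.02; adjusted limma p 0.465), and -0.17 without H1.3 replicate 1. The neighbours of HMGN1 on chromosome 21 had a median of -0.17.

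HMGA1, an AT-hook protein, measured 8.58 and 8.66 in the arrays labelled H1.3 against 8.61 and 9.18 in the vector-only arrays. The groups overlapped, and the difference of -0.28 ± 0.19 (SE) came from vector-only replicate 2: without it the value was 0.01. HMGB2 differed by -0.09 and PTMA, prothymosin alpha, an acidic protein that is known to bind linker histone H1, by -0.05, both with overlap. The shared clusters that hold HMGB1 and HMGA2 differed by -0.09 and 0.12. Of 8 other HMG-related genes, HMGB3 at -0.36 and HMGN3 at -0.42 had the smallest p (adjusted limma p 0.273 and 0.317), and the list's median was -0.15 with 3 positive and 5 negative values. At an unadjusted limma p under 0.05, 3 were lower and 0 higher. That is 37.5% lower, beside 9.3% of genes at or above the median level, where 7 of the 8 lie. The third of them, TOX, named after its values were seen, differed by -0.79, and by -0.23 without H1.3 replicate 1.

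**Figure D3:**
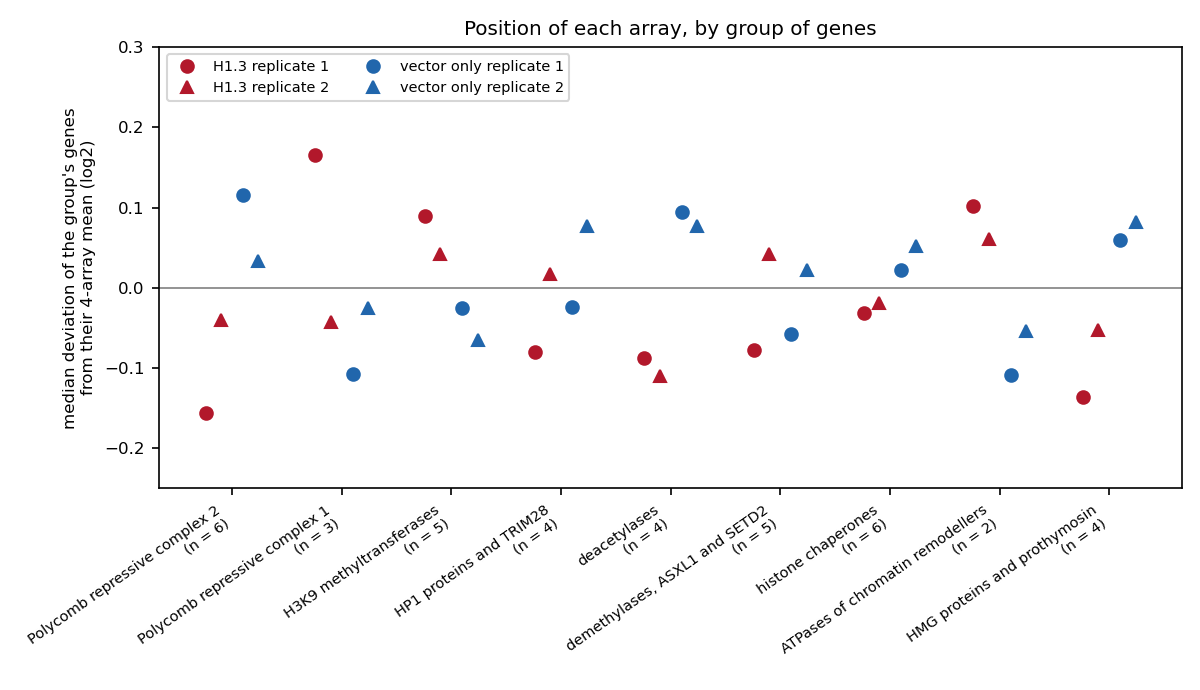
Median over the genes of each group of the deviation from the gene's 4-array mean (log2), per array. For the deacetylases both arrays labelled H1.3 lie below both vector-only arrays at -0.09 and -0.11 against 0.10 and 0.08, whereas for HP1 proteins and TRIM28 the arrays of both groups are mixed.

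By complex, the position of each array showed which medians rest on 1 library. The deacetylases lay at -0.09 and -0.11 in the arrays labelled H1.3 and at 0.10 and 0.08 in the vector-only arrays, with replicates of a group 0.02 apart. Polycomb repressive complex 2 lay at -0.16 and -0.04 in the arrays labelled H1.3 and at 0.12 and 0.03 in the vector-only arrays, with replicate 1 of each group farther out. HMG proteins and prothymosin lay at -0.14 and -0.05 in the arrays labelled H1.3 and at 0.06 and 0.08 in the vector-only arrays. The median difference of this group, -0.18, ran from -0.23 to -0.095 when 1 array was left out. The H3K9 methyltransferases lay at 0.09 and 0.04 in the arrays labelled H1.3 and at -0.03 and -0.07 in the vector-only arrays. For Polycomb repressive complex 1 H1.3 replicate 1 lay at 0.17 and H1.3 replicate 2 at -0.04, against -0.11 and -0.03 in the vector-only arrays. Its median of 0.11 was 0.04 without H1.3 replicate 1 and 0.08 without vector-only replicate 1.

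Among the remaining writers, 19 genes for H3K4 and H3K36 methyltransferases, their subunits and the H3K79 methyltransferase DOT1L had a median of 0.06. The 14 genes for acetyltransferases and subunits of their complexes had a median of 0.09, with 9 positive and 4 negative values. Without overlap, 7 lay above and 1 below, or 50% and 7.14%. Among genes at or above the median level, where all 14 lie, these shares were 22.2% and 25.6%. ASH2L, a core subunit of the H3K4 methyltransferases, measured 8.91 and 9.18 in the arrays labelled H1.3 against 9.74 and 9.70 in the vector-only arrays. Its difference of -0.68 ± 0.13 (SE; adjusted limma p 0.0951) stood beside a median of -0.47 over its neighbours on chromosome 8. RBBP5, its partner subunit, ran the other way at 0.27 (adjusted limma p 0.424), beside a neighbour median of 0.17 on chromosome 1. KAT5, the TIP60 acetyltransferase, differed by -0.58 ± 0.13 (SE; adjusted limma p 0.130) and TRRAP, a scaffold of the same complex, by 0.23 (adjusted limma p 0.586).

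**Figure D4:**
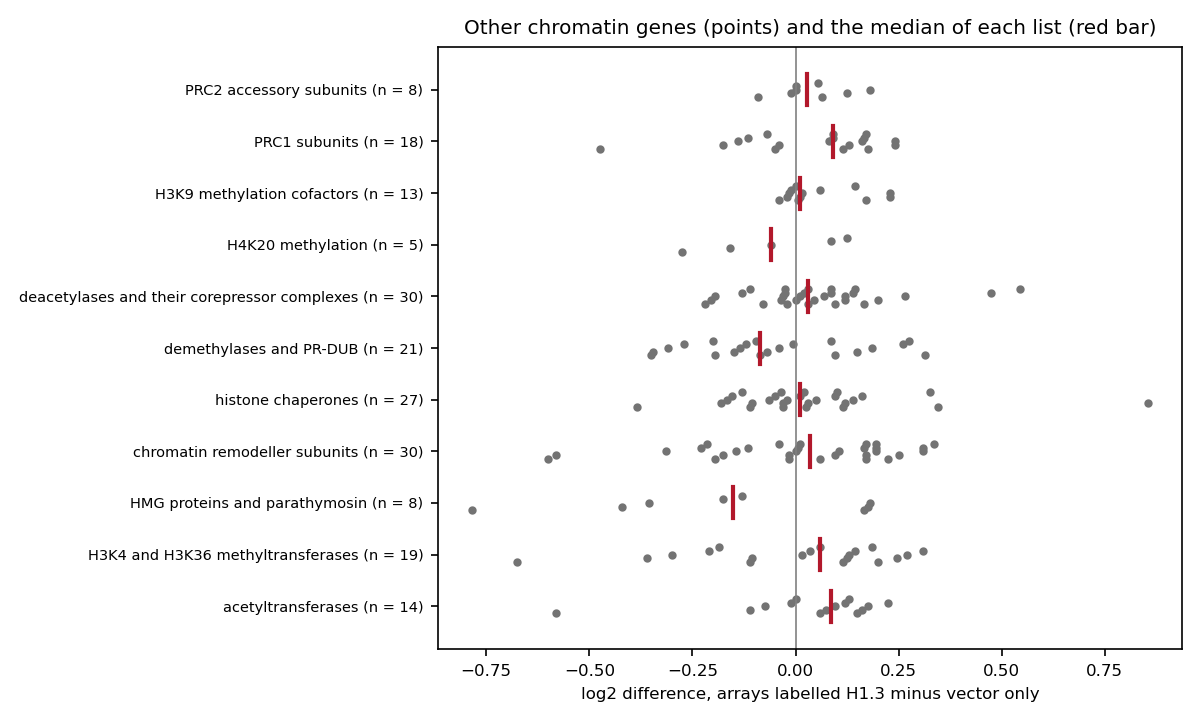
Log2 difference of 193 other chromatin genes (points) in 11 lists, with each list's median (red bar), arrays labelled H1.3 minus vector only. All 11 medians lie between -0.15 and 0.09, and single genes reach from -0.79 to 0.86.

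Over the 11 lists, 193 other chromatin genes had 105 positive and 82 negative differences, with a median of 0.02. None passed limma at the adjusted threshold. At an unadjusted p under 0.05, 9 were higher and 10 lower, or 4.66% and 5.18%, beside 6.19% and 9.3% of genes at or above the median level, where 176 of the 193 lie, and 53 lay above and 36 below without overlap. That is 27.5% and 18.7%, beside 21.6% and 19.3% of all genes and 22.2% and 25.6% of those at or above the median level. The largest value, 0.86 ± 0.65 (SE) for the chaperone gene NAP1L3, named after its values were seen, rests on vector-only replicate 2. NAP1L3 measured 7.62 and 7.53 in the arrays labelled H1.3 against 7.94 and 5.50 in the vector-only arrays, and without that array the difference was -0.37.

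The differences of the 39 genes ran along with those of their neighbours on the chromosome. Pearson's r between a gene's difference and the median of its neighbours was 0.66 and Spearman's rho 0.60 over the 39 genes, and 0.56 and 0.57 without EED. Over 192 other chromatin genes the values were 0.46 and 0.40. These are descriptions across genes, which share the same 4 arrays and in part the same neighbours. The relation was not computed over all genes, so it is not shown to be particular to chromatin genes. The 4 genes with neighbour medians at or below -0.15, a bound set after seeing the data, were EED, CBX3, ASXL1 and HMGN1. All 4 were themselves lower without overlap, beside 25.6% of genes at or above the median level, whatever their neighbours. SETDB1 alone had a neighbour median at or above 0.15, and differed by 0.09. At the same bounds, 18 other chromatin genes with low neighbours held 14 negative and 3 positive differences, and 9 with high neighbours held 9 positive ones. Among the remaining 34 of the 39, 19 were negative and 15 positive, with a median of -0.02. Both gene sets were chosen with earlier results of these arrays known, which had shown runs of neighbours that shift together.

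**Figure D5:**
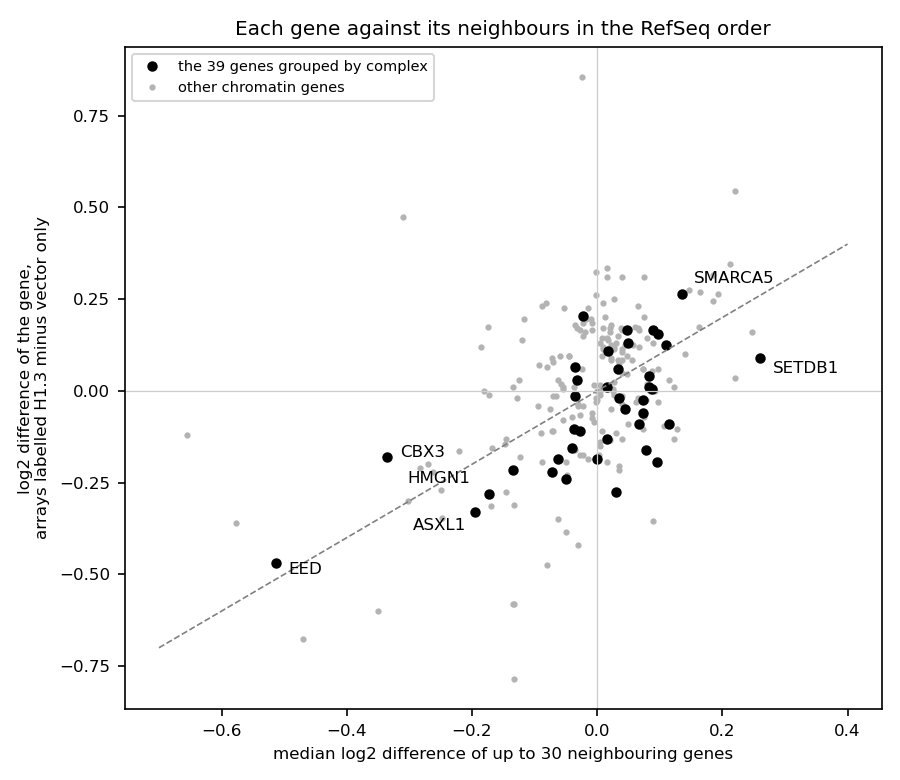
Log2 difference of each gene (vertical) against the median log2 difference of up to 30 neighbouring genes at or above the median level (horizontal), arrays labelled H1.3 minus vector only, with black points for the 39 genes and grey points for the other chromatin genes. EED lies near the dashed line of equal values, at -0.47 against -0.51.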

How the data were processed

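RNA from 4 samples was hybridised to 1-colour Affymetrix arrays. The authors deposited log2 values, 1 column per sample, for 33297 transcript clusters, and the submitters' processing notes name RMA and Affymetrix Expression Console; the sources used here give no versions and no genome build, and no probe intensity was used. Names came from the platform annotation, updated through gene identifiers to RefSeq (GRCh38.p14): 19460 clusters had 1 symbol, 1754 several, and 12083 were unnamed here.

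All 21214 named clusters were fitted with limma 3.58.1 in R 4.3.3 (lmFit, eBayes, two-sided, no covariate, 2 residual and 5.16 prior degrees of freedom), with Benjamini-Hochberg adjustment over all of them and a threshold of 0.05. A gene stands on its single-symbol cluster of highest mean. The number of arrays limits the precision: the median SE was 0.13. The genes, lists and naming rule (all 44 genes accounted for, others by smallest p per list) were chosen with earlier results of these data known, and lists are described, not tested. The 9 groups of genes follow complex or role. Neighbours are the 15 expressed genes on each side in the RefSeq order. Alternatives changed moderation, scaling, filter, clusters tested, threshold and replicate block, or left out each array. The fit was tested on simulated data. Promoters are from RefSeq. Figures were drawn with matplotlib 3.10.9.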

Additional observations from a re-analysis of the deposited data

How the results depend on the processing

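None of the 39 genes passed in 14 refits, of which the one without clusters below the median level tested 37, and the smallest adjusted p over them was 0.110. The median of the 39 ran from -0.075 to -0.01 when 1 array was left out and stayed between -0.06 and -0.04 in the other settings. H1-3 stayed below 0 and uncalled, between -1.07 and -0.30 when 1 array was left out. Of the 39 genes, 12 took the opposite sign without 1 array, with ranges of -0.065 to 0.085 for EZH2, -0.025 to 0.155 for SUZ12, -0.10 to 0.11 for RING1, -0.065 to 0.035 for SUV39H2, -0.03 to 0.11 for EHMT1, -0.10 to 0.16 for CBX5, -0.215 to 0.005 for KDM4A, -0.125 to 0.085 for ATRX, -0.11 to 0.06 for DAXX, -0.08 to 0.10 for HIRA, -0.38 to 0.16 for ASF1A and -0.56 to 0.01 for HMGA1. In other refits 3 genes did: SUV39H2 (0.00375) and ATRX (0.0225) after a second quantile normalization, and RING1 with the mean of its clusters (-0.0125) or with arrays at one median of all clusters (-0.005). Over all clusters, 51 higher and 56 lower calls became 107 and 138 with a robust trend, 6 and 3 without moderation, 6 and 19 once clusters below the median level were left out, 1 and 3 when unnamed clusters were tested as well, 19 and 31 with arrays at one median of all clusters, 135 and 176 at an adjusted p under 0.10, and 282 and 401 when at least 1.5-fold at an unadjusted p under 0.05 was asked. The cause was not tested. Leaving out 1 array gave 0 to 0 for both counts (1292 to 2367 clusters at an unadjusted limma p under 0.05), the remaining array of a group being taken to vary as the other group does. In the fit with a replicate block, limma called 0 clusters higher and 0 lower (2195 had an unadjusted p under 0.05), and replicate differences of the groups correlated at 0.06, so the arrays were treated as unpaired. Shifting arrays to one median of the named clusters moved nothing, since those medians were equal already; the shift to one median of all clusters and the median with the shared clusters of BMI1, HMGA2 and HMGB1 (-0.04) were chosen after seeing the data.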

Other observations

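Several of the 39 genes were measured by more than 1 cluster, which gives a second reading of the same difference. HMGN1 was lower without overlap on both of its clusters. The second measured 9.12 and 9.32 in the arrays labelled H1.3 against 9.59 and 9.55 in the vector-only arrays, a difference of -0.35 ± 0.12 (SE; adjusted limma p 0.330), beside -0.28 on the cluster that stands for the gene. The 3 DAXX clusters, at -0.03, -0.03 and -0.02, and the 6 PTMA clusters, from -0.10 to -0.01, likewise lay close together. The 2 clusters of EHMT2 held identical values on all 4 arrays and are 1 reading.

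HMGA1 is the gene whose clusters disagree in sign, apart from RING1 near 0. Its clusters differed by -0.28, -0.24 and 0.14. The third measured 8.45 and 8.19 in the arrays labelled H1.3 against 7.96 and 8.40 in the vector-only arrays, and none of the 3 separated the groups. The second cluster of ATRX, at -0.11, was lower without overlap, whereas the one that stands for the gene, at -0.02, was not. PTMA, HMGN1 and HMGB1 have processed copies elsewhere in the genome, and which copy a cluster's probes read was not analysed here.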
